A study of Homo sapiens with 9 samples.

Results

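Tenascins, thrombospondins and fibronectin are large glycoproteins of the extracellular matrix, and 7 of their genes (TNC, COMP, TNR, TNXB, THBS1, THBS2 and FN1) were described here on whole-genome arrays of HK-1 cells, a human nasopharyngeal carcinoma (NPC) cell line. Every probe that the array files name for one of these genes was taken, which gave 9 probes for 6 of the 19402 genes that the array names, out of 25378 probes that carry a gene name. TNC, COMP and FN1 had 2 probes each, TNR, THBS1 and THBS2 had 1 each, and TNXB was not analysed here. TNC and COMP were picked on these arrays, that is, chosen by their lower signal after baicalein and because their signal exceeded that of empty spots on each of the 9 arrays. Their differences between baicalein and control are therefore given as a description with no test.

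The 9 single-dye arrays comprised 3 of control cells, labelled as not treated, 3 of cells given 10 µM baicalein, a plant flavonoid, and 3 of cells given 20 µM. All cells were HK-1 grown as a monolayer in Petri dishes. Baicalein was diluted in serum-free medium, and treated cells were kept in it for 24 h and then in fresh medium for a further 24 h. The labels give the control cells as not treated, while the study's methods name DMSO, the solvent of baicalein, as the control in general. Whether the control cells of the arrays received DMSO or the change of medium was not settled by the sources used here, so any part of either in the baicalein differences cannot be told apart from that of baicalein. Same-numbered arrays of the 3 groups carry the same date in their headers, so that each date holds 1 array of each group.

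Matrix glycoproteins of this kind join collagens and other fibres to receptors on cells. Fibronectin, the product of FN1, is the classical adhesive protein that integrins grip through a short cell-binding motif. Tenascin-C (TNC) is a matrix protein of embryonic tissue, wounds and tumours that loosens adhesion to fibronectin, while tenascin-R (TNR) belongs to the nervous system and tenascin-X (TNXB) to connective tissue. Thrombospondin-1 and thrombospondin-2 (THBS1 and THBS2) are secreted regulators of adhesion, of TGF-β and of blood vessel growth, and COMP, also called thrombospondin-5, binds collagens in cartilage and tendon.

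In GRCh38.p14, TNC lies at chr9:115019575-115118157 and COMP at chr19:18782773-18791305. THBS1 lies at chr15:39581079-39599466, THBS2 at chr6:169215785-169253846, FN1 at chr2:215360865-215436068 and TNR at chr1:175315194-175743595. The sources used here give neither the probe sequences nor where in a transcript each probe binds. The arrays did not measure promoters. Those of TNC and COMP are shown because these are the genes with a measurable probe that was lower at both doses. Each runs 5′ to 3′ on the minus strand from 250 bases before to 50 bases after the RefSeq gene start (GRCh38.p14, chr9:115118108-115118407 and chr19:18791256-18791555), with capitals for the motifs GGGCGG (a GC box) and TATATA.
TNC: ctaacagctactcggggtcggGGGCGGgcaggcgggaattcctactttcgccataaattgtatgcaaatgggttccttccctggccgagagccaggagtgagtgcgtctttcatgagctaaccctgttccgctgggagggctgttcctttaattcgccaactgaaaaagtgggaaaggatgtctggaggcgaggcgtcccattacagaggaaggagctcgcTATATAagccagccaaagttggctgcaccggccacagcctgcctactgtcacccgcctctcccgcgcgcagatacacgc
COMP: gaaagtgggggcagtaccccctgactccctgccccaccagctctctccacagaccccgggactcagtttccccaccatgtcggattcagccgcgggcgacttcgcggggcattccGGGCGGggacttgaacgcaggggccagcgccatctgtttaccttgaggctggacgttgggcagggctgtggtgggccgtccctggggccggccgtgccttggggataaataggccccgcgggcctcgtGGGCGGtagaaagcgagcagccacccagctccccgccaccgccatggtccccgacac
Both strands were searched for GGGCGG and for TATATA, for the TATA box motif TATAAA, and for the AP-1 site, whose letters are TGACTCA. The TNC window held 1 GGGCGG and 1 TATATA, and the COMP window held 2 GGGCGG and no TATATA. Neither held the letters TATAAA or the AP-1 site. TATAAA was the only spelling searched as a TATA box, so its absence does not show that a promoter lacks such an element. Among 35116 RefSeq promoters of the same length, 45.0% held the GC box, 3.99% TATATA, 11.5% TATAAA and 4.95% the AP-1 site. Bases G and C made up 57.3% of the TNC and 68.7% of the COMP window, against a median of 58.7% over all promoters. A match is a description of these letters and no evidence of binding.

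Each spot has a raw intensity, a local background and a net intensity, which is raw minus background. The detection bound of an array was the 95th percentile of net intensity over its spots that carry no probe, and lay between 1266 and 1823. Probes that exceeded it are called above the empty spots. Local background made up 86.5% to 88.3% of the median raw intensity of gene probes, and 6.95% to 17.4% of named probes passed the bound, the highest share on control replicate 1. Above the bound on all 9 arrays were 799 named probes, and on no array 18548. Of the squamous epithelial markers expected of this line, JUP, a junction protein, was the 1 of 16 that exceeded the bound on each array, and 11 exceeded it on none, so most of these markers could not be followed. Of markers of other cells, 2 of 11 for fibroblasts (PDGFRB and S100A4), 1 of 9 for chondrocytes (HAPLN1), 0 of 9 for neurons and glia and 0 of 7 for blood cells were above on all arrays.

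Of the 9 probes, 1 of TNC (PH_hs_0049197) and 1 of COMP (PH_hs_0027533) exceeded the bound on all 9 arrays. The TNC probe stood at 3.77 to 8.84 times the bound and the COMP probe at 1.12 to 3.36 times, the lowest value of COMP being that of 20 µM replicate 1. The nearest probe outside this threshold was that of TNR, which passed on 2 arrays, at 1.19 times the bound on control replicate 1 and 1.03 times on control replicate 3. The other 6 probes, among them the second probes of TNC and COMP and both of FN1, passed on no array.

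**Figure D1:**
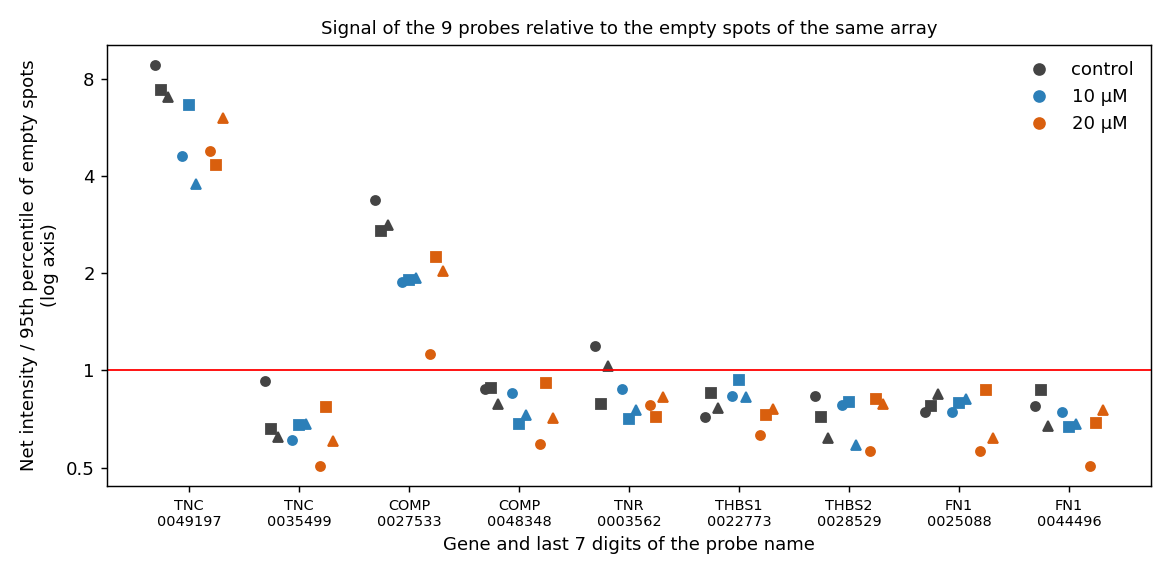
Net intensity of each of the 9 probes divided by the detection bound of the same array (log axis, red line at 1), by gene and probe. Colours mark control, 10 µM and 20 µM arrays, and circles, squares and triangles mark replicates 1, 2 and 3. One TNC probe (3.77 to 8.84) and one COMP probe (1.12 to 3.36) lie above the line on every array, and TNR on 2 control arrays.

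TNC signal was lower with baicalein on the measurable probe. Its net intensity was 12641, 9862 and 8859 on control replicates 1, 2 and 3. It was 7028, 8643 and 5099 on the 10 µM arrays, and 8707, 5645 and 8308 on the 20 µM arrays. All 6 baicalein arrays thus lay below the 3 control arrays, although 10 µM replicate 2 and 20 µM replicate 1 came close to control replicate 3. The mean was 10454 ± 1959 (SD, n = 3) in control cells, 6923 ± 1774 at 10 µM, which is 33.8% lower, and 7553 ± 1665 at 20 µM, which is 27.7% lower. In such bulk RNA, fewer cells with the transcript and less transcript per cell cannot be told apart.

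COMP signal was lower by a like amount. Net intensity was 4804, 3591 and 3568 on the control arrays, 2854, 2489 and 2609 at 10 µM, and 2049, 2922 and 2810 at 20 µM. The groups did not overlap at either dose, and the 10 µM arrays lay close together. The mean was 3988 ± 707 (SD, n = 3) in control cells, 2650 ± 186 at 10 µM (33.5% lower) and 2594 ± 475 at 20 µM (35.0% lower).

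**Figure D2:**
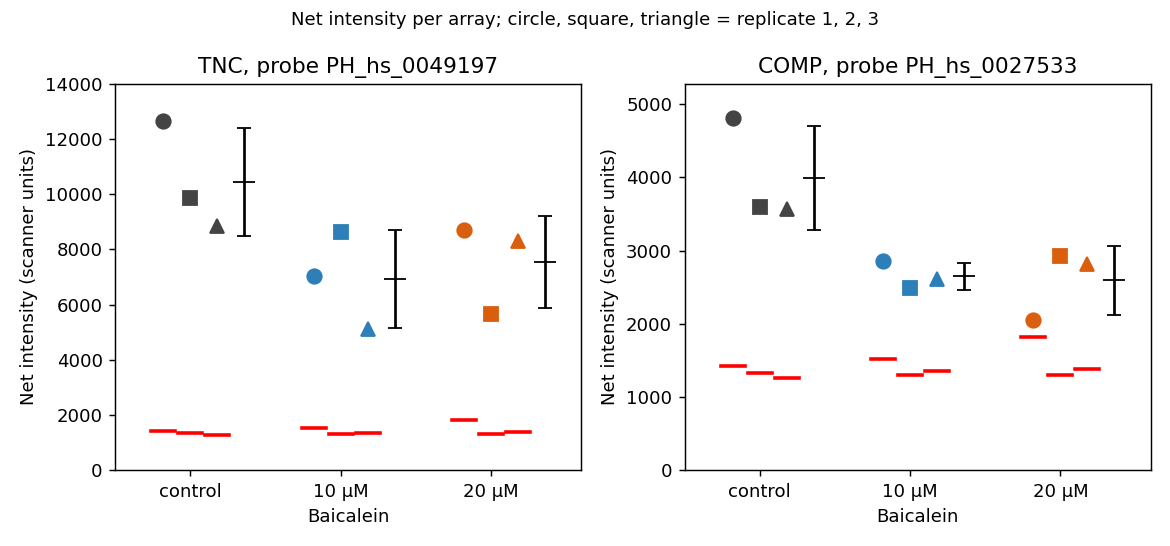
Net intensity (scanner units) of the TNC and COMP probes above the empty spots, 1 point per array by group, with the group mean and SD in black and each array's detection bound as a red bar. All 6 baicalein arrays lie below the 3 control arrays for both genes, and COMP on 20 µM replicate 1 (2049) lies just above its bound of 1823.

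The share of other probes that behaved in this way differed between the doses. On net intensity as deposited, 2 of the 9 matrix glycoprotein probes had all 10 µM arrays below all control arrays, against 3.14% of all named probes and 13.8% of the 799 probes above the empty spots on all arrays. At 20 µM it was again 2 of 9, against 4.62% of named probes and 42.2% of those 799. These 2 probes were chosen for this pattern, so nothing is read from their count. Of the 799 probes, 84 lay below control on all arrays of both doses. On the scale of normalized log2 raw intensity, TNC and COMP were separated from control at 10 µM (3.2% of all named probes were), and at 20 µM only COMP was (3.27% of named probes).

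After log2 transformation, median centring and quantile normalization of raw intensity, TNC differed from control by -0.38 in mean log2 intensity (standard error 0.13) at 10 µM and by -0.14 at 20 µM. COMP differed by -0.11 (standard error 0.055) and -0.15. On normalized log2 net intensity the differences were larger, at -0.52 and -0.20 for TNC and -0.42 and -0.34 for COMP. After normexp background correction they were -0.58 and -0.22 for TNC and -0.57 and -0.52 for COMP, so the size of the difference followed the treatment of the background while its direction did not change. Among the 799 measurable probes, ordered from the most negative difference of raw log2 intensity, TNC was number 3 and COMP number 84 at 10 µM, and TNC was number 468 and COMP number 427 at 20 µM. On net log2 intensity they were numbers 5 and 12 at 10 µM and numbers 346 and 165 at 20 µM. Both probes were chosen for lower signal with baicalein on these same arrays, so a low number is no support for a difference.

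These ranks reflect where the measurable probes as a class lay. At 10 µM their median difference in raw log2 intensity was -0.019, with 90% of probes between -0.15 and 0.14. At 20 µM the median was -0.16, with 710 of 799 probes below control, so that TNC (-0.14) and COMP (-0.15) stood at about the middle. For the 799 probes, the array medians of net intensity ran from 6370 to 8344 in control cells, from 5922 to 6870 with 10 µM and from 3412 to 5537 with 20 µM. The lowest was that of 20 µM replicate 2, which was also the lowest 20 µM array for TNC but the highest 20 µM array for COMP (2922).

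**Figure D3:**
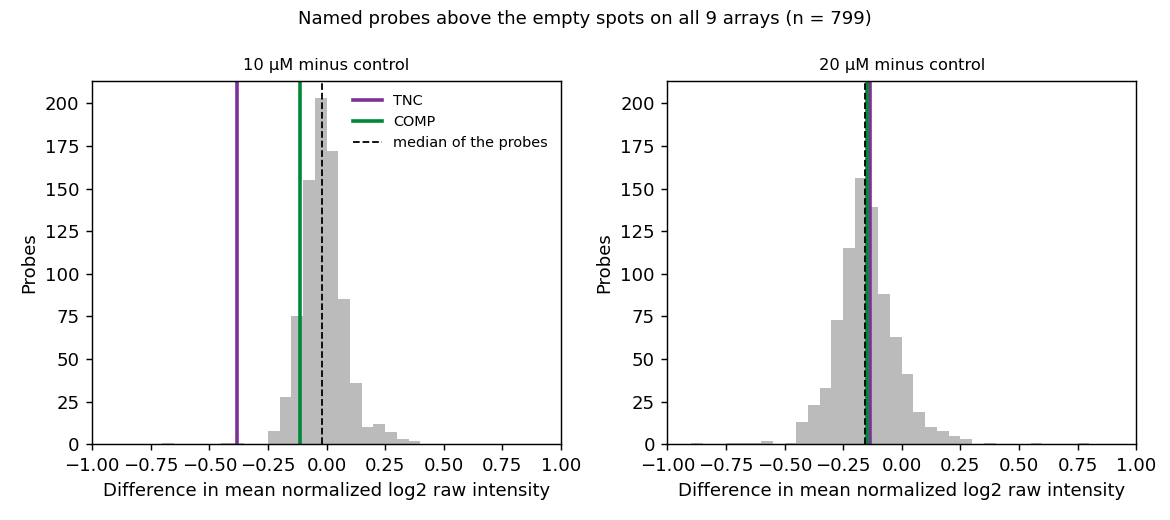
Histograms of the difference in mean normalized log2 raw intensity of 799 named probes above the empty spots on all arrays, at 10 µM and 20 µM against control, with TNC, COMP and the median of the probes as vertical lines. At 10 µM TNC (-0.38) and COMP (-0.11) lie to the left of the median (-0.019), and at 20 µM both lie beside it (-0.16).

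When log2 net intensity was instead taken relative to the median of these 799 probes on each array, a setting chosen after the data were seen, TNC stood at 0.60, 0.63 and 0.42 on the control arrays. It stood at 0.033, 0.55 and -0.39 at 10 µM and at 0.65, 0.73 and 0.59 at 20 µM. The mean difference from control was -0.49 (standard error 0.22) at 10 µM, where replicate 2 overlapped with control, and 0.11 at 20 µM, so the direction at 20 µM turned with the scaling. COMP stood at -0.80, -0.83 and -0.89 in control cells, -1.27, -1.25 and -1.35 at 10 µM and -1.43, -0.22 and -0.98 at 20 µM. Its difference was -0.45 (standard error 0.25) at 10 µM, without overlap, and -0.040 at 20 µM, where the arrays lay on both sides of control.

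Within each date, both genes were compared with the control array of the same number. Deviations of same-numbered arrays from their group means correlated positively on raw intensity for control and 10 µM only. The 20 µM differences are therefore between arrays that share a date but whose deviations did not rise and fall together. For TNC on normalized raw log2 intensity, the 10 µM array differed by -0.36, -0.093 and -0.70 in replicates 1, 2 and 3, and the 20 µM array by -0.19, -0.22 and -0.0054. TNC was thus below its own control on all dates at both doses, with a difference near 0 for 20 µM in replicate 3. For COMP the differences were -0.052, -0.17 and -0.12 at 10 µM, and -0.051, -0.31 and -0.085 at 20 µM. On this scale all arrays of TNC at 10 µM and of COMP at both doses lay below all control arrays. Each of these same-date differences was therefore bound to be negative, and their agreement over dates is no separate support. On normalized net intensity COMP at 10 µM differed by -0.46, -0.38 and -0.42, a narrow range. At 20 µM the net differences were -1.05, 0.13 and -0.099, so that replicate 2 lay above its control and replicate 1 carried most of the mean.

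**Figure D4:**
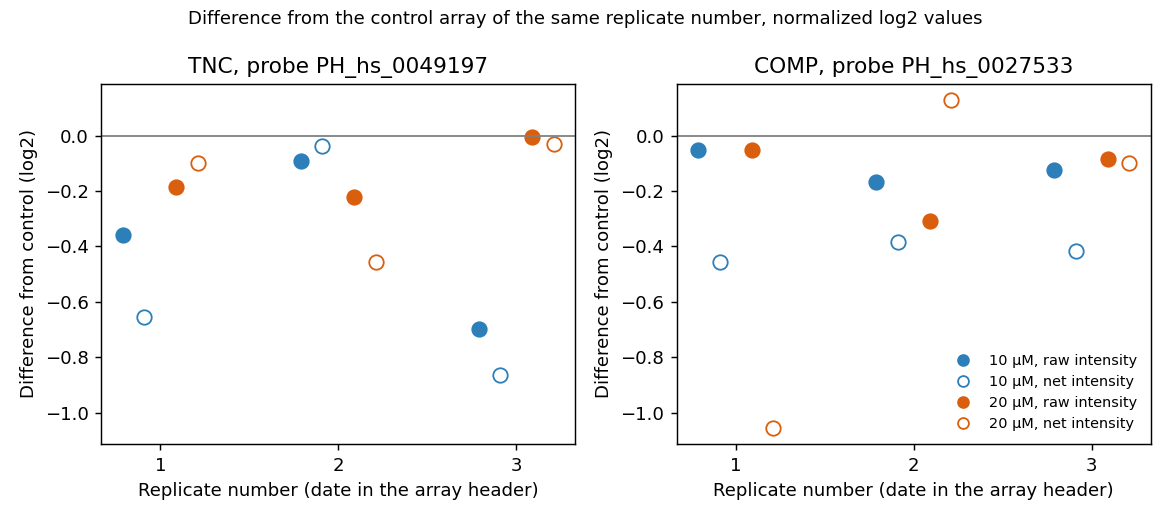
Difference of each baicalein array from the control array of the same replicate number (vertical axis, log2), for the measurable TNC and COMP probes, by replicate, on normalized raw (filled) and net (open) intensity. TNC at 10 µM ranges from -0.093 to -0.70 on raw intensity, and COMP at 20 µM on net intensity ranges from -1.05 to 0.13.

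TNC at 10 µM rested in part on 1 array, since its difference was -0.21 without 10 µM replicate 3 and -0.38 with it. At 20 µM it was -0.077 without 20 µM replicate 2. The COMP difference ran from -0.13 to -0.080 at 10 µM and from -0.18 to -0.10 at 20 µM when single arrays were left out. Local background of the TNC spot ran from 7288 to 9336 in control cells, from 5206 to 9087 with 10 µM and from 8696 to 9107 with 20 µM. On 10 µM replicate 3 the background (5206) and the net intensity (5099) were both the lowest of the 9 arrays. The background of the COMP spot overlapped between groups at both doses. The part of the background in the raw differences was not tested.

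A difference between the 2 doses was not itself a ground for choosing TNC and COMP. The choice used the same 10 µM and 20 µM arrays, however, so the p-values of this comparison are not an independent test. TNC was higher at 20 µM than at 10 µM by 0.25 in mean log2 raw intensity (standard error 0.13, limma adjusted p = 0.993), and COMP differed by -0.034 (standard error 0.055, adjusted p = 0.993). The TNC difference was 0.072 without 10 µM replicate 3 and 0.37 without 10 µM replicate 2. The sign of the COMP difference was not stable, being 0.077 on net intensity and 0.012 without 20 µM replicate 2. Neither difference passed, and in this comparison 0% of all named probes passed at 0.05, while 856 had an unadjusted p under 0.05. COMP arrays of the doses overlapped, as did those of TNC. On net intensity relative to the 799 measurable probes, all 20 µM arrays of TNC lay above all 10 µM arrays, by 0.59 (standard error 0.22), with 0 of the 799 probes past an adjusted p under 0.05, and COMP differed by 0.41, so the dose difference depends on the scaling.

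The second TNC probe (PH_hs_0035499) had net intensities of 1331, 878 and 790 in control cells, 927, 885 and 922 at 10 µM and 921, 1007 and 835 at 20 µM. It was not above the empty spots on any array, and the groups overlapped. The second COMP probe (PH_hs_0048348) gave 1249, 1179 and 999 in control cells, 1294, 891 and 983 at 10 µM and 1078, 1193 and 985 at 20 µM, likewise not above the empty spots. These probes had not been chosen by their signal. They could be neither set beside the lower values of the measurable probes nor used against them, since a probe below the bound gives only an upper limit.

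TNR, the tenascin of the nervous system, had net intensities of 1706, 1048 and 1305 on the control arrays, 1335, 919 and 1018 at 10 µM and 1429, 936 and 1143 at 20 µM. It passed the bound on 2 control arrays and on no array with baicalein, and the groups overlapped. No fold or log2 difference is given, because the control mean was 0.955 times the mean bound of the 10 µM arrays and 0.893 times that of the 20 µM arrays. With the bound raised to the 99th percentile TNR passed on 0 arrays. In limma its adjusted p was 1.00 at both doses. Neuron and glia markers above the empty spots on all arrays numbered 0 of 9.

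THBS1 was listed at net intensities of 1025, 1136 and 971 in control cells, 1268, 1214 and 1122 at 10 µM and 1148, 948 and 1047 at 20 µM. THBS2 ranged from 781 to 1195 in control cells, 793 to 1189 at 10 µM and 1027 to 1088 at 20 µM. Both thrombospondins were not above the empty spots on any array, and their groups overlapped at both doses.

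FN1, whose protein is the main integrin ligand of this group, was also below the bound with both probes. Probe PH_hs_0025088 gave 1065, 1036 and 1072 in control cells, 1126, 1035 and 1103 at 10 µM and 1025, 1130 and 849 at 20 µM. Probe PH_hs_0044496 ranged from 853 to 1157 in control cells, 870 to 1127 at 10 µM and 894 to 1036 at 20 µM. On normalized raw log2 intensity all 20 µM arrays of PH_hs_0025088 lay below all 10 µM arrays (adjusted p = 0.993), a pattern that 5.1% of named probes shared, and on net intensity they overlapped. No fold is given for these probes, and a low signal does not show that fibronectin or thrombospondin transcripts were absent.

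In limma, none of the 7 probes outside the chosen pair passed an adjusted p under 0.05, with the lowest adjusted p at 1.00 against control for both doses, and 0% of all 25378 named probes passed. At an unadjusted p under 0.05 there were 198 named probes at 10 µM and 594 at 20 µM, and 0 of these 7 at either dose. At 10 µM 2 were below and 5 above control, and on net intensity 4 were below and 3 above. At 20 µM 5 were below and 2 above control, and on net intensity 6 were below and 1 above. Over all named probes, 48.5% were below control at 10 µM and 50.4% at 20 µM on the raw scale. The share on net intensity is not given here, so nothing is read from the net counts.

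Other members of the same families were measured with THBS3, THBS4 and TNN. THBS4, a thrombospondin of muscle and tendon, passed the bound on 5 of 9 arrays, with net intensities of 1274 to 1968 in control cells, 1215 to 1819 at 10 µM and 1325 to 1442 at 20 µM. THBS3 passed on no array, with 978 to 1174 in control cells and 991 to 1442 at 20 µM. All 3 groups overlapped for both genes, and none of the 3 family members had an unadjusted p under 0.05.

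Integrin subunits that bind these proteins were represented by 15 genes, of which 9 were below control at 10 µM and 13 at 20 µM, with median differences in raw log2 intensity of -0.021 and -0.068. Over all 19402 genes the medians were 0.0020 and -0.0022, with 9346 genes below control at 10 µM and 10037 at 20 µM. Of the 799 measurable probes, 710 lay below control at 20 µM. Of the 15 integrin genes, 9 passed the bound on no array and 2 on all 9. None of the integrin subunits had an unadjusted p under 0.05 at 10 µM, against 0.794% of all genes, and 2 had at 20 µM, against 2.82%. ITGB1, the β1 subunit shared by most fibronectin receptors, had net intensities of 4397 to 6505 in control cells, 4118 to 5581 at 10 µM and 2331 to 4640 at 20 µM, with differences of 0.017 and -0.22 (standard error 0.083, adjusted p = 1.00). Its 20 µM arrays overlapped with control. ITGA4, the α4 subunit, passed the bound on 1 array, with 965 to 1740.1 in control cells, 1094 to 1292 at 10 µM and 942 to 1006 at 20 µM (adjusted p = 1.00 at 20 µM).

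Of 20 other receptors and surface partners, 10 were below control at 10 µM and 14 at 20 µM, against 48.2% and 51.7% of all genes. Of the 20 receptors and partners, 17 did not exceed the bound on any array, against 13360 of all 19402 genes. Those with the lowest p were CD47, a receptor of thrombospondin-1, and DAG1, which encodes dystroglycan, a laminin receptor, both with an adjusted p = 1.00. CD47 passed the bound on no array, with net intensities of 931 to 1378 in control cells, 983 to 1227 at 10 µM and 873 to 1026 at 20 µM. DAG1 passed on 1 array, with 1063 to 1769 in control cells, 1012 to 1127 at 10 µM and 1135 to 1197 at 20 µM. Both overlapped with control at each dose.

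Among 48 other adhesive glycoproteins of the matrix, 24 were below control at 10 µM and 33 at 20 µM, with median differences of -0.0007 and -0.017. At 10 µM 0 had an unadjusted p under 0.05, and at 20 µM 3 had, all of them lower and all with an adjusted p = 1.00. Over all genes, 48.2% were below control at 10 µM and 51.7% at 20 µM. At 20 µM 547 of the 19402 genes had such a p, 463 of them lower, and 710 of the 799 measurable probes lay below control. FRAS1, a basement membrane protein of skin, passed on 8 arrays. Its net intensity was 6149 to 10189 in control cells, 5455 to 5788 at 10 µM and 1092 to 6061 at 20 µM. The differences were -0.097 and -0.39 (standard error 0.16). All its baicalein arrays thus lay below all control arrays on net intensity, as did those of 265 of the 25378 named probes. ELN, which encodes elastin, passed on 8 arrays and differed by 0.16 at 10 µM and -0.33 at 20 µM (standard error 0.14). Its net intensity was 8090 to 9198 in control cells, 7187 to 8158 at 10 µM and 1220 to 6683 at 20 µM.

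Collagens, to which COMP and fibronectin bind, showed 9 of 22 genes below control at 10 µM and 10 at 20 µM, with 0 at an unadjusted p under 0.05 and 15 above the empty spots on no array. Over all 19402 genes, 48.2% were below control at 10 µM and 51.7% at 20 µM, and 13360 passed the bound on no array. In limma, 0.794% of all genes at 10 µM and 2.82% at 20 µM had an unadjusted p under 0.05. COL27A1 was below the bound on every array, with 936 to 1057 in control cells, 926 to 1149 at 10 µM and 946 to 1063 at 20 µM (adjusted p = 1.00 at both doses). COL9A3, a cartilage collagen, had 1038.9 to 1931 in control cells and 1130 to 24557 at 10 µM, the highest value standing on 1 array only. Of 22 genes of TGF-β signaling and matrix regulation, 10 were below control at 10 µM and 13 at 20 µM, against the same 48.2% and 51.7% of all genes. TGFBR2, the type II TGF-β receptor, had 4072 to 5623 in control cells, 3307 to 5296 at 10 µM and 1686 to 4043 at 20 µM, with differences of -0.048 and -0.34 (standard error 0.073, adjusted p = 1.00).

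The summed net intensity of the 11 fibroblast markers ran from 17233 to 20605 in control cells, from 14738 to 17428 with 10 µM and from 15157 to 16873 with 20 µM. That of the 9 chondrocyte markers was 13203 to 19138, 13564 to 18186 and 11615 to 13761, and that of the 16 squamous epithelial markers 18957 to 22907, 19386 to 23623 and 17854 to 21708. Most of these spots were not above the empty spots (6 fibroblast, 6 chondrocyte and 11 epithelial genes on no array). The fibroblast sum was lower at 20 µM than on every control array, as were TNC and COMP and 42.2% of the 799 measurable probes. All arrays were of HK-1 cells, so the sum describes marker signal and is no measure of a share of fibroblasts. Its relation to TNC and COMP was not tested.

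Among the measurable probes, those whose normalized raw log2 intensity followed TNC most closely over the 9 arrays were DDX31, an RNA helicase (Pearson r = 0.90), LOC283392 (0.71) and CCDC102A (0.69). Those closest to COMP were C3orf70 (0.91), RGS9, a regulator of G-protein signaling (0.89), and C14orf115 (0.87). On net log2 intensity the values fell to 0.72 for DDX31 and 0.089 for LOC283392, rose to 0.71 for CCDC102A, and were 0.27, 0.035 and -0.44 for the COMP partners. TNC and COMP themselves correlated at r = 0.53 on raw and 0.048 on net intensity. These correlations are over arrays that share groups, dates and spot background, and describe likeness only.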

How the data were processed

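Cy3-labelled cDNA of HK-1 cells was hybridised to 9 arrays, 3 per group. Deposited scanner files hold the raw, background and net intensity of each spot, quantified with Array-Pro Analyzer, without normalization. The authors' table of processed values is treated as a score: its array medians lie between -0.14 and -0.0056, and whether it followed the log2, median and quantile steps that the methods name for raw intensity was not settled, so its scale and centring stay unknown. Raw intensity was log2-transformed, centred on the array median and quantile-normalized over 29187 gene probes, the steps the methods name for these arrays. Net intensity was floored at 1 before log2.

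Groups were fitted together with limma 3.58.1 in R 4.3.3, with Benjamini-Hochberg adjustment of two-sided p-values over 25378 named probes. P-values measure the spread between arrays that the labels number as replicates and the methods call biological replicates. Each probe has 1 spot per array, and a gene in a list is represented by its probe of highest mean raw log2 intensity. The limma fit was checked on simulated data with planted differences and independent noise. That noise held no date or background effect, so the check does not cover such effects. Figures were drawn with matplotlib 3.10.9. The number of arrays limits the precision.

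The members and lists were chosen with earlier results of these data known. Genes named beside the members are, per list, up to 4 with an unadjusted p under 0.05 at either dose, otherwise the 2 of lowest p, and the 3 measurable probes most correlated with TNC and with COMP. A gene that this rule names is not reported here. Same-numbered arrays share a header date. Their deviations from group means correlated on raw intensity at 0.14 to 0.23 between control and 10 µM. Between control and 20 µM the values were -0.33 to -0.23, and between the doses -0.11 to -0.074. On raw intensity same-numbered arrays thus rose and fell together for control and 10 µM only. On net intensity, control and 10 µM arrays of the same number correlated at 0.0093 to 0.087, which overlaps with -0.077 to 0.021 for different numbers. A replicate block was an alternative, as were normexp background correction (offset 50), net intensity, median centring alone, the arrays of a comparison alone, limma with trend and robust, the methods' t-test, the authors' table, bright probes only (mean net intensity above the mean bound of the empty spots), and leaving out each array.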

Additional observations from a re-analysis of the deposited data

How the results depend on the processing

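The TNC and COMP differences at 10 µM were negative under all 21 alternatives run for each. At 20 µM they were negative under 20 of 21 for TNC, the exception being net intensity relative to the probes above the empty spots (0.11), and under 21 of 21 for COMP. Both probes were chosen for lower signal with baicalein on these same arrays, so a stable sign is no independent support for the differences. Leaving out single arrays could not turn the sign on raw intensity for TNC at 10 µM or COMP at either dose, where the groups did not overlap. The count of matrix glycoprotein probes with a negative difference was 4 of 9 at 10 µM, 7 of 9 at 20 µM and 5 of 9 for 20 µM minus 10 µM. It includes the 2 probes chosen for lower signal with baicalein. Without them it was 2, 5 and 4 of 7, against 48.5%, 50.4% and 51.0% of all named probes, so no shift of the family is read from it. With bright probes only, which leaves 2 probes, the count was 2, 2 and 1, and on net intensity relative to the probes above the empty spots, chosen after the data were seen, 2, 1 and 0 of 2. Both settings leave the TNC and COMP probes alone, and on the relative scale TNC at 20 µM against control and COMP at 20 µM against 10 µM changed sign. For 20 µM minus 10 µM it was 3 with normexp background correction, on net intensity, and on net intensity with the replicate block and only the arrays of the comparison, and the cause was not tested. With single arrays left out, the counts ran from 3 to 5, 5 to 7 and 4 to 6.

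The count of named probes past limma's adjusted p under 0.05 was 0 in all 3 comparisons, 0 with the replicate block and 0 under every other alternative except when single arrays were left out. It then ran from 0 to 1 at 20 µM against control (VEZF1 without 20 µM replicate 2, CCDC51 without 20 µM replicate 3) and from 0 to 2 at 20 µM against 10 µM (VEZF1 without replicate 2, CCDC51 and TRPM7 without replicate 3). These genes were named after their values were seen. Counts at an unadjusted p under 0.05 ran over all alternatives from 13 to 1242 at 10 µM, 77 to 1423 at 20 µM and 56 to 1633 for 20 µM against 10 µM, the low ends coming from fits on fewer probes. The methods' t-test gave 576, 523 and 809 at that threshold and 0 after Benjamini-Hochberg adjustment. The replicate block changed no call of a matrix glycoprotein probe. Of 180 list counts under alternatives, 159 stayed within the limits set for them. Signal over background limits all results on TNR, THBS1, THBS2 and FN1, and COMP passed a bound at the 99th percentile on 8 of 9 arrays.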
